A study of Homo sapiens with 6 samples.

Results

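Claudins are small membrane proteins with 4 passes through the lipid bilayer that line up between neighbouring epithelial cells and form the strands of the tight junction. Some of them seal the space between cells, whereas others form pores that let ions or water through, so the mixture that a tissue makes sets how leaky it is. Occludin is a further strand protein, and ZO-1, the product of TJP1, is the scaffold under the membrane that ties strands to the actin cytoskeleton. In the colon this junction is the barrier below the mucus.

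Here 10 genes of this structure were followed, chosen by name as rows of the deposited count table: CLDN1, CLDN2, CLDN3, CLDN4, CLDN7, CLDN12, CLDN15, CLDN23, OCLN and TJP1. They were 10 of 58735 named genes, and all 10 were among the 15351 genes that passed the filter on low counts. Poly(A) RNA was sequenced from LS174T, a human colorectal adenocarcinoma line with goblet-like features, in 3 libraries labelled wild type and 3 labelled FXYD3 knockout. The labels name no treatment, do not describe the edit, and do not tell how the 3 libraries of a genotype relate (separate cultures, separate clones or repeats of 1 culture). All p-values are therefore set against the spread of these libraries alone, which may be technical. FXYD3 encodes a small regulator of the sodium pump. Its transcript was counted 54, 91 and 55 times in wild type and 79, 131 and 85 times under the knockout label, so it was not lower where the label says knockout (log2 fold change 0.54, SE 0.20, edgeR adjusted p = 0.0522). FXYD3 was called higher when wild-type library 2 was left out (0.79, adjusted p = 0.0031), and also with upper quartile scaling (adjusted p = 0.0442), with no filter on low counts (0.0479), with the replicate number as a block (0.0472) and with the trend of fold change with gene length removed (0.0426). The groups are therefore called wild type and knockout-labelled, and every direction is that of the labels. FXYD3 (deposited length 3334 bases) also shares 1292 exon bases with the same-strand gene AC020907.6, where reads cannot be told apart. AC020907.6 had 0 counts in both groups. Whether shared reads were left uncounted was not tested, so the FXYD3 counts may not cover the whole transcript.

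Libraries held 15417232 to 19453217 counts in named genes. Of 8 defining markers of colonic epithelium all were detected and tested, with KRT8 at 6929 ± 463 CPM in wild type and EPCAM at 749 ± 26.8 CPM (CPM, counts scaled to a common TMM-adjusted depth, mean ± SD, n = 3). Of 12 markers of immune, endothelial, fibroblast and muscle cells, 10 were too low to test, and PTPRC, CD3E and PECAM1 were at 0 in all 6 libraries. Their summed level was 1.504 to 1.987 CPM in wild type and 6.85 to 7.83 CPM in the knockout-labelled libraries, a difference carried by COL3A1, a fibrillar collagen gene (16 summed counts in wild type and 293 under the knockout label; chosen after its values were seen). The part of that in the results below was not tested.

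Claudin mRNAs did not move as one. Of the 10 genes, 5 fell in the knockout-labelled libraries (CLDN1, CLDN2, CLDN3, CLDN7 and CLDN23), 1 rose (CLDN15), and 4 did not pass the test (CLDN4, CLDN12, OCLN and TJP1). Each fall left between 0.695 and 0.856 of the wild-type level, and the rise was 1.72-fold. Across all genes tested edgeR called 24.3%, 12.0% higher and 12.4% lower, at an adjusted p below 0.05. The libraries of both groups did not overlap for the 6 called genes, as for 37.2% of all tested genes in either direction. The median log2 fold change of the 10 was -0.14, against 0.0021 for all tested genes. Against a minimum change of 1.5-fold, a test that called 5.18% of all genes, 0 of the 10 passed.

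**Figure D1:**
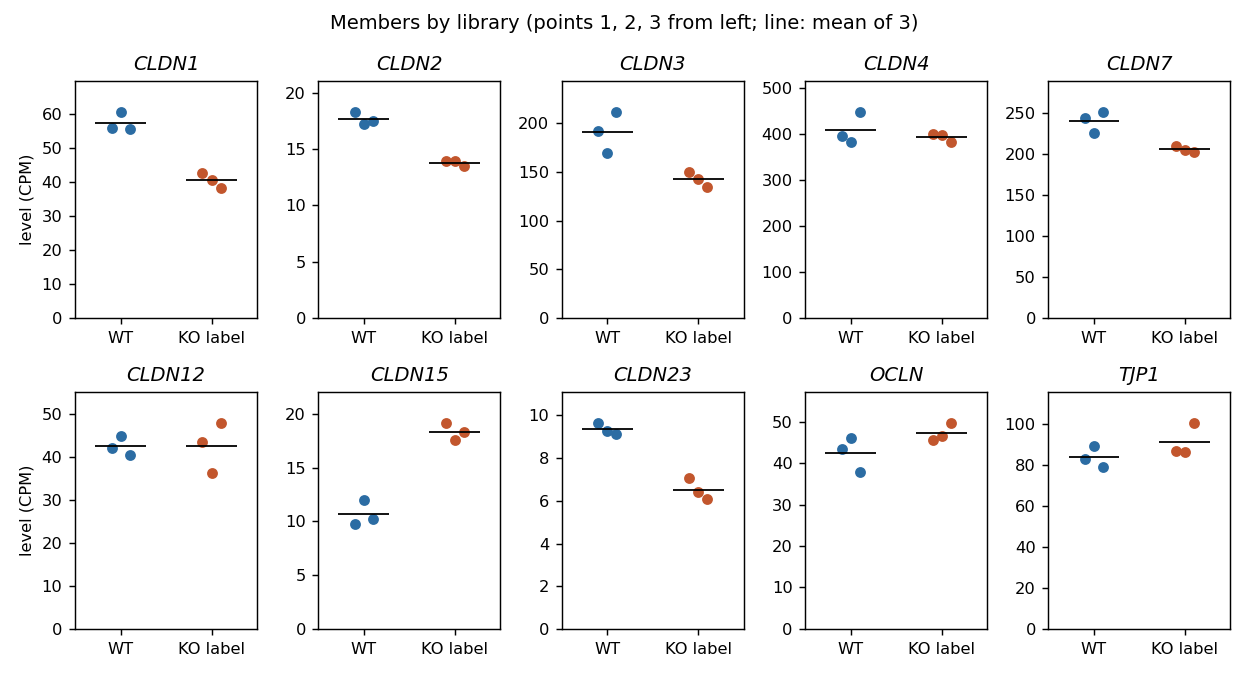
Level of each gene in CPM (vertical axes from 0) in the 3 wild-type and the 3 knockout-labelled libraries. Points are libraries 1, 2 and 3 from left and the line is their mean. The groups do not overlap for CLDN1, CLDN2, CLDN3, CLDN7 and CLDN23, which are lower, and CLDN15, which is higher on the right.

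Among the sealing claudins, CLDN1 is the one whose loss opens the epidermal barrier in mice. CLDN1 (ENSG00000163347; GRCh38 chromosome 3, 190305701 to 190322475, minus strand) was counted 965, 1076 and 892 times in wild type and 658, 791 and 641 times under the knockout label. As CPM these were 55.8, 60.5 and 55.4 against 42.5, 40.5 and 38.2. Every knockout-labelled library was below every wild-type library. This was a log2 fold change of -0.50 (SE 0.07, 95% interval -0.66 to -0.35; edgeR adjusted p = 8.2e-06).

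CLDN3 is a strand-sealing claudin and, with CLDN4, a receptor for the enterotoxin of Clostridium perfringens. CLDN3 (ENSG00000165215; chromosome 7, 73768997 to 73770270, minus strand) stood at 192, 169 and 211 CPM in wild type and at 150, 143 and 134 CPM in the knockout-labelled libraries, so again the groups did not overlap. It fell by 0.42 on the log2 scale (SE 0.07, 95% interval -0.56 to -0.28, edgeR adjusted p = 6.5e-05). CLDN4 lies next to it on the opposite strand (ENSG00000189143; chromosome 7, 73799542 to 73832693), with 29272 bases and 0 named genes between them. CLDN4 had 397, 384 and 448 CPM in wild type and 400, 399 and 382 CPM in the knockout-labelled libraries. These ranges overlapped, with wild-type library 3 above the other 5. Its log2 fold change was -0.06 (SE 0.06, 95% interval -0.18 to 0.07, edgeR adjusted p = 0.548), and without wild-type library 3 the estimate was 0.0085.

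CLDN7 is a claudin that also sits along the sides of intestinal epithelial cells and binds EPCAM. CLDN7 (ENSG00000181885; chromosome 17, 7259903 to 7263983, minus strand) had 245, 226 and 252 CPM in wild type and 210, 206 and 203 CPM in the knockout-labelled libraries. The lowest wild-type library stayed above the highest knockout-labelled one. The fall was the smallest of the 5, at -0.22 (SE 0.06, 95% interval -0.34 to -0.11, edgeR adjusted p = 0.00398). Of its exon bases 38 also belong to ELP5 on the opposite strand, whose log2 fold change was -0.16 (adjusted p = 0.154). The strand setting of the counter is not given in the sources used here, so reads there cannot be told apart. The same-strand gene AC003688.1, with 0 counts in both groups, shares 269 exon bases with CLDN7 (10.8% of those of CLDN7). Reads in that overlap cannot be told apart either.

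CLDN23, a less studied family member encoded by a gene on chromosome 8 (ENSG00000253958; 8701938 to 8704106, plus strand), had 167, 165 and 147 counts in wild type and 109, 125 and 102 in the knockout-labelled libraries. The corresponding levels were 9.66, 9.27 and 9.13 CPM against 7.05, 6.40 and 6.08 CPM. No library of one group reached the range of the other. Its log2 fold change of -0.53 carried a wider error than that of CLDN1 (SE 0.14, 95% interval -0.81 to -0.24, edgeR adjusted p = 0.0058).

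Of the pore-forming claudins, CLDN2 makes channels for small cations and water in leaky epithelia and CLDN15 makes sodium channels in the intestine. The pair went in opposite directions. CLDN15 (ENSG00000106404; chromosome 7, 101232092 to 101238820, minus strand) had 169, 213 and 165 counts in wild type and 297, 344 and 307 in the knockout-labelled libraries. Its CPM were 9.78, 11.97 and 10.2 against 19.2, 17.6 and 18.3, with a gap between the groups. It rose by 0.78 on the log2 scale (SE 0.11, 95% interval 0.55 to 1.01, edgeR adjusted p = 4.9e-06), the largest in absolute size among the 10 and larger than that of 90.3% of all tested genes.

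CLDN2 (ENSG00000165376; chromosome X, 106900164 to 106930861, plus strand) had 18.3, 17.2 and 17.5 CPM in wild type and 13.9, 14.0 and 13.5 CPM in the knockout-labelled libraries. The groups did not overlap, and the spread within each was small. The fitted difference was -0.36 log2 units (SE 0.10, 95% interval -0.57 to -0.15, edgeR adjusted p = 0.0113). With wild-type library 1 left out CLDN2 was not called (-0.33, adjusted p = 0.0577). RIPPLY1 on the opposite strand shares 341 exon bases with CLDN2, but its own counts summed to 16 in wild type and 2 under the knockout label.

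CLDN12, which lacks the usual binding site for ZO proteins and has been tied to paracellular calcium, gave no direction. CLDN12 (ENSG00000157224; chromosome 7, 90383721 to 90513402, plus strand) had 42.1, 45.0 and 40.4 CPM in wild type and 43.6, 36.2 and 48.0 CPM in the knockout-labelled libraries. The lowest and the highest library were both knockout-labelled. The fitted log2 fold change was 0.00072 (SE 0.09, 95% interval -0.18 to 0.19, edgeR adjusted p = 0.997), and its sign changed with the processing. Its exons share 347 bases with GTPBP10 and 201 with CDK14 on the same strand, where reads cannot be told apart. They also share 371 bases with AC006153.1 and 276 with AC002456.2, same-strand genes with 0 counts in both groups. CDK14 rose from 42 to 130 summed counts (log2 fold change 1.59, edgeR adjusted p = 0.00052). GTPBP10 had 1655 and 1910 (0.19, adjusted p = 0.086). The part of these overlaps in the CLDN12 counts was not tested.

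OCLN, the gene of occludin, and TJP1, the gene of ZO-1, leaned upward without passing the test. OCLN (ENSG00000197822; chromosome 5, 69492292 to 69558104, plus strand) had 43.4, 46.1 and 37.9 CPM in wild type and 45.5, 46.5 and 49.7 CPM in the knockout-labelled libraries, with overlap between the groups. Its log2 fold change was 0.15 (SE 0.08, 95% interval -0.01 to 0.32, edgeR adjusted p = 0.181), and the test was passed without wild-type library 2 (0.21, adjusted p = 0.0479). OCLNP1, by its name a pseudogene of OCLN, had summed counts of 5 in wild type and 19 under the knockout label. The likeness of the 2 sequences was not tested, and how any reads common to both were divided is uncertain.

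TJP1 (ENSG00000104067; chromosome 15, 29699367 to 29968865, minus strand) had 82.9, 89.5 and 79.2 CPM in wild type and 86.9, 86.6 and 101 CPM in the knockout-labelled libraries. Only knockout-labelled library 3 was above all wild-type libraries. Its log2 fold change was 0.12 (SE 0.07, 95% interval -0.02 to 0.27, edgeR adjusted p = 0.213). The intervals for OCLN and TJP1 do not include a fall as large as that of CLDN7, the smallest of the falls.

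**Figure D2:**
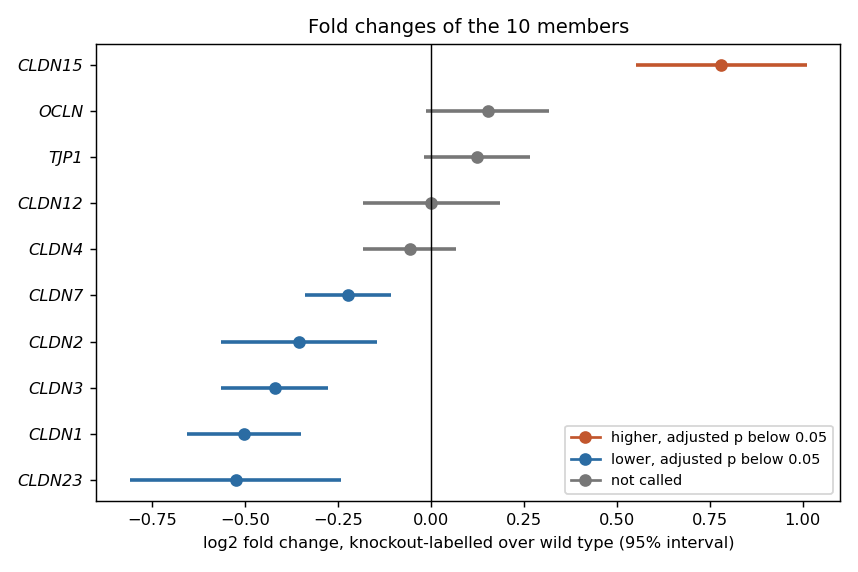
Log2 fold change of each gene, knockout-labelled over wild type, with its 95% interval from the edgeR fit (horizontal axis). CLDN15 lies at 0.78, the 5 genes called lower lie between -0.53 and -0.22, and the intervals of OCLN, TJP1, CLDN12 and CLDN4 include 0.

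Gene length moved with the libraries and is given here because these genes differ in length, from 1274 bases for CLDN3 to 11265 for TJP1. Among the 3840 shortest tested genes (up to 2578 bases) the median deviation from the mean of all libraries was 0.09 log2 units in wild-type library 3 and -0.05 in knockout-labelled library 3, and among the 3837 longest (from 6983 bases) it was -0.07 and 0.06. The median log2 fold change was -0.03 among those shortest and 0.05 among those longest genes. With each library's length trend removed, a step chosen after seeing the data, the same 5 genes were called lower and CLDN15 higher. The log2 fold change of TJP1 went from 0.12 to 0.07 there, and those of CLDN1, CLDN3 and CLDN15 were -0.50, -0.43 and 0.79.

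Levels were compared between genes as CPM per kb of gene length. The order depends on the deposited length, 4702 bases for CLDN4 and 1274 for CLDN3. Which transcripts were made was not tested, and a shorter transcript would raise the level per kb. Before division by length CLDN4 was highest in wild type at 410 ± 34.1 CPM, with CLDN7 at 241 ± 13.45 and CLDN3 at 191 ± 21.0. In wild type CLDN3 stood highest at 150 ± 16.5 CPM per kb, followed by CLDN7 at 96.6 ± 5.40 and CLDN4 at 87.1 ± 7.25, and the libraries of CLDN7 and CLDN4 overlapped. CLDN1 came next at 15.6 ± 0.767 CPM per kb. TJP1 (7.44 ± 0.460), CLDN12 (6.30 ± 0.345) and OCLN (6.28 ± 0.619) formed a middle group, in which CLDN12 and OCLN overlapped. CLDN2 (5.18 ± 0.164), CLDN23 (4.31 ± 0.127) and CLDN15 (3.69 ± 0.399 CPM per kb) were lowest, with no overlap between neighbours in that order.

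In the knockout-labelled libraries CLDN3 was again highest, at 112 ± 6.26 CPM per kb. CLDN4 (83.7 ± 2.10) and CLDN7 (82.7 ± 1.46 CPM per kb) overlapped, and CLDN1 followed at 11.03 ± 0.593. TJP1 (8.12 ± 0.721) stood above OCLN (6.99 ± 0.328 CPM per kb) without overlap. CLDN15, the lowest of the 10 in wild type, reached 6.35 ± 0.277 CPM per kb and overlapped with CLDN12 at 6.32 ± 0.885. CLDN2 at 4.05 ± 0.0699 and CLDN23 at 3.0 ± 0.228 CPM per kb were then the lowest, without overlap.

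**Figure D3:**
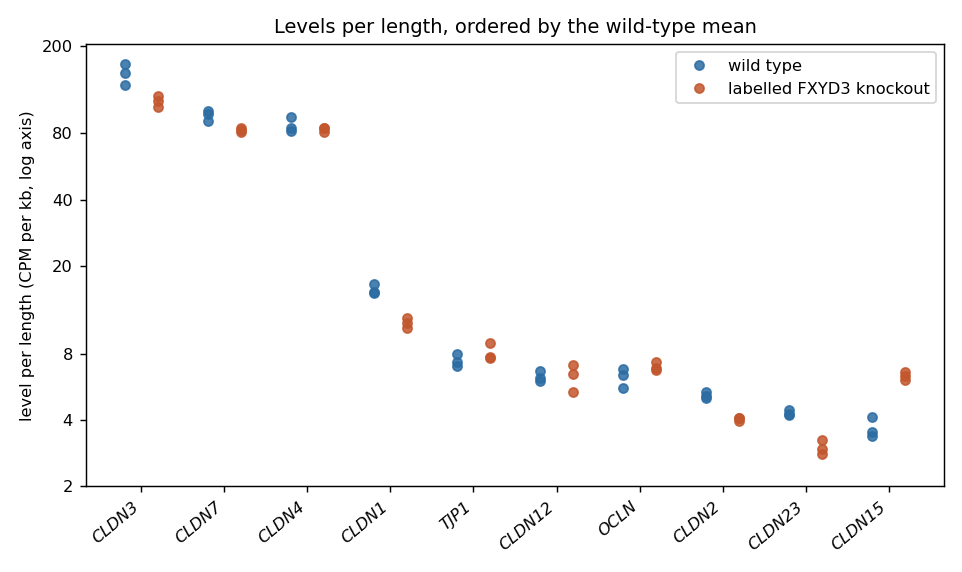
Level per length (CPM per kb, log axis) of each gene in the wild-type and knockout-labelled libraries, with genes ordered by their wild-type mean. CLDN3, CLDN7 and CLDN4 lie far above the rest, and CLDN15 moves from the bottom of the order to the level of CLDN12.

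Summed over all 24 annotated claudin genes considered, the level per length was 368, 343 and 398 CPM per kb in wild type and 320, 310 and 300 in the knockout-labelled libraries. The groups did not overlap in this sum. CLDN3 made up 40.4 ± 1.51% of it in wild type and 36.1 ± 0.852% in the knockout-labelled libraries, CLDN4 23.6 ± 0.588% and 27.0 ± 0.401%, and CLDN7 26.2 ± 0.672% and 26.7 ± 0.401%. The share of CLDN15 went from 1.0 ± 0.175% to 2.05 ± 0.0776%, and that of CLDN2 from 1.41 ± 0.0993% to 1.31 ± 0.0274%. Shares depend on one another and on the deposited lengths, and a share of transcripts is not a share of protein in the strand. In cell pools, fewer cells that make a transcript and less of it per cell cannot be told apart.

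The other 16 claudin genes were near or at the limit of detection. Of these 7 had 0 counts in every library, and 1, CLDN16, a magnesium-handling claudin of the kidney, passed the filter. CLDN16 had 14, 10 and 16 counts in wild type and 8, 12 and 9 under the knockout label (log2 fold change -0.48, SE 0.45, edgeR adjusted p = 0.482). CLDN9 had 7, 6 and 6 counts against 9, 16 and 13, and CLDN20 had 2, 10 and 16 against 4, 15 and 9. The most counts any of the 16 had in a library was 16, against 102 for the lowest of the 10.

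Promoter letters are shown for CLDN1, CLDN3 and CLDN7, the most abundant of the genes that fell. RefSeq (GRCh38.p14) gave 15 windows of 250 bases before a start for 9 of the 10 genes. The stretches for CLDN1 and CLDN3 hold no annotated exon. In them capitals mark the GC box GGGCGG or its reverse complement CCGCCC, a site of Sp1-type factors, and in the CLDN7 stretch they mark the E-box CACCTG or CAGGTG, a site of Snail and ZEB factors.
CLDN1 (chr3:190322476-190322540, minus strand): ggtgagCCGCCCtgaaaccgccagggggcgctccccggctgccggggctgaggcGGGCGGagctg
CLDN3 (chr7:73770271-73770520, minus strand): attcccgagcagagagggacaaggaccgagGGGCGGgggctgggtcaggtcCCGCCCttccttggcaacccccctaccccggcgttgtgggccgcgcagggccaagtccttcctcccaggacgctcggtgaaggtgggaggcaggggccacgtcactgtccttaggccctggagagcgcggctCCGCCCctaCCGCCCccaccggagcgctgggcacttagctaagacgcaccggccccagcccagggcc
CLDN7 (chr17:7262479-7262501, minus strand, within an exon of a longer transcript): actCAGGTGcgcccCACCTGtcc

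The CLDN1 stretch of 65 bases holds 2 matches to the GC box, all those of its window of 250 bases, and the CLDN3 window holds 4. The CLDN1 stretch also lies directly before CLDN16 on the opposite strand, so its matches are not particular to CLDN1. The GC box was present on either strand in 42.6% of all 35116 RefSeq windows of 250 bases. Among the 10 genes the GC box was in 9 of the 15 windows and in 7 genes, also in CLDN7, in CLDN15, which rose, and in CLDN4, OCLN and TJP1, which were not called. The windows of CLDN1 and CLDN3 were 68.8% and 71.6% G or C, and the 15 ranged from 34.8% to 71.6%. Over all windows the median was 58%, and no allowance was made for base composition. CLDN7 has 4 E-box matches in the 250 bases before this start, the last 2 of which are printed. CACCTG was present on either strand in 17.5% of all windows, and among the 10 genes in windows of CLDN7, OCLN and TJP1. The core of TCF/LEF sites, CTTTGA, was in 11.2% of all windows and in those of CLDN4 and TJP1, and TATAAA was in 10.7% of all windows and in 0 of the 15. These motifs were chosen after the values were seen, and a match does not show that a factor binds.

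Other membrane proteins of the tight junction also went both ways. Of 13 such genes 11 were tested, 2 were higher and 1 was lower, where 24.3% of all tested genes were called. Their median log2 fold change was -0.11. CXADR, the coxsackie and adenovirus receptor, an adhesion protein of the junction, had 77.2, 73.8 and 73.7 CPM in wild type and 120, 107 and 120 CPM in the knockout-labelled libraries. It rose by 0.62 (SE 0.06, edgeR adjusted p = 1.8e-08), and the groups did not overlap. ESAM, an adhesion protein best known from endothelium, rose from 3.01 ± 0.0773 to 5.98 ± 0.538 CPM. ILDR2, of the angulin family at tricellular contacts, fell from 2.61 ± 0.221 to 1.40 ± 0.336 CPM (adjusted p = 0.0201). ILDR2 was not called when wild-type 1, knockout-labelled 2 or knockout-labelled 3 was left out (adjusted p 0.0545 to 0.0948). LSR, the most abundant of the list and also an angulin, had 200 ± 13.3 and 207 ± 10.02 CPM (adjusted p = 0.582).

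Among scaffold, polarity and plaque proteins 23 of 25 genes were tested, with a median of 0.05. Of these 2 were higher and 2 lower, where 24.3% of all tested genes were called. TJP3, which encodes ZO-3, a relative of ZO-1 found in epithelia, fell from 77.8 ± 5.06 to 64.3 ± 4.196 CPM (log2 fold change -0.27, SE 0.07, edgeR adjusted p = 0.00504). ARHGEF2, whose product is held at the junction by cingulin, fell from 54.8 ± 0.304 to 42.1 ± 3.13 CPM. AMOTL2, an angiomotin of the apical scaffold, rose from 50.8 ± 2.13 to 67.9 ± 2.85 CPM, and PATJ, a polarity scaffold of the Crumbs complex, from 63.4 ± 5.0 to 77.4 ± 1.81 CPM. YBX3, a transcription factor that binds ZO-1 and the most abundant of the list, had a log2 fold change of 0.05 (SE 0.06, adjusted p = 0.574).

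Both lists together had 4 genes higher and 3 lower of 34 tested, a share near the 24.3% called across the table. The count of lower genes was 2 to 5 when single libraries were left out (5 without wild-type library 2) and 5 with the length trend removed.

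**Figure D4:**
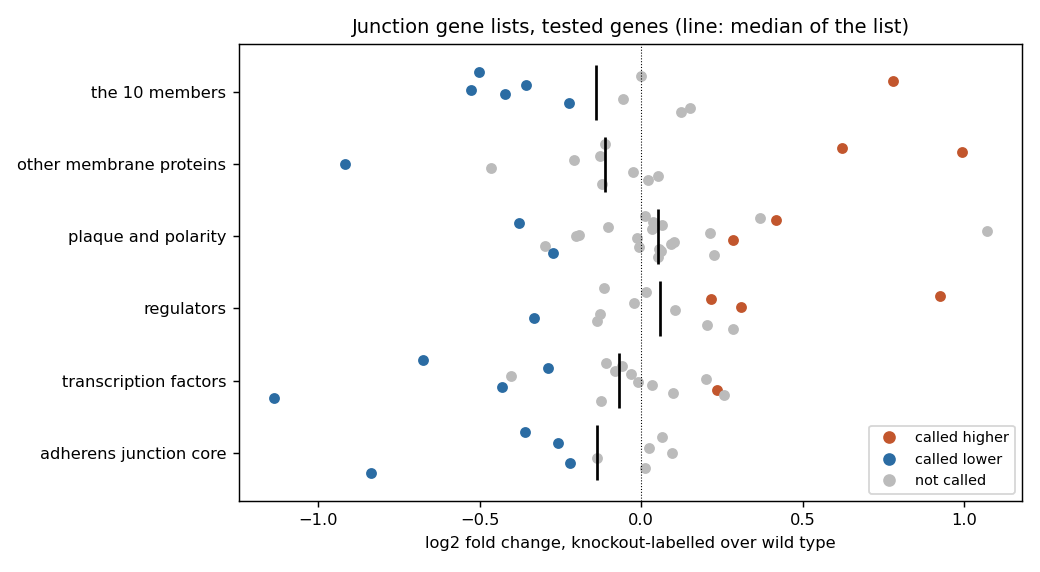
Log2 fold change, knockout-labelled over wild type (horizontal axis), of each tested gene in 6 lists (rows), with the median of each list as a line. The 10 genes have a median of -0.14, the other membrane proteins -0.11, and the plaque and polarity genes 0.05.

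Partners and regulators of claudins included 12 tested genes of 13, 3 higher and 1 lower (median 0.06), where 24.3% of all tested genes were called. SPINT2, an inhibitor of the membrane proteases that cleave EPCAM, fell from 534 ± 33.8 to 425 ± 3.34 CPM (log2 fold change -0.33, SE 0.06, edgeR adjusted p = 8.5e-05). EPCAM, which holds claudin-7 at the membrane, had 749 ± 26.8 and 692 ± 37.2 CPM (adjusted p = 0.178). The kinase genes ROCK1 and MYLK, which drive contraction of the actin ring beside the junction, rose, ROCK1 from 49.2 ± 3.19 to 61.0 ± 4.62 CPM and MYLK from 1.60 ± 0.201 to 3.06 ± 0.306 CPM. MYLK-AS1 on the opposite strand, with summed counts of 30 and 65, shares 133 exon bases with MYLK. PRSS8, a membrane-anchored protease, rose by 0.22 (adjusted p = 0.0305). PRSS8 was not called when wild-type 1 (adjusted p = 0.0958) or knockout-labelled 2 (0.13, adjusted p = 0.25) was left out.

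Transcription factors of intestinal and epithelial identity were listed together with repressors of epithelial junction genes, 21 genes in all. Of 16 tested, 1 was higher and 4 were lower, with the repressor gene SNAI1 among those 4 (median -0.07). Across all tested genes 12.0% were higher and 12.4% lower. CDX1, an intestinal homeobox factor, had 190, 175 and 204 CPM in wild type and 120, 126 and 109 CPM under the knockout label (log2 fold change -0.67, SE 0.06, edgeR adjusted p = 6.5e-09). KLF4 fell from 168 ± 15.5 to 124 ± 12.1 CPM and GATA6 from 136 ± 9.95 to 111 ± 4.12 CPM, while KLF5, a factor of proliferating crypt cells, rose from 312 ± 9.02 to 368 ± 18.4 CPM. GATA6 shares 240 exon bases with GATA6-AS1 on the opposite strand, which had summed counts of 156 and 184. GATA6 also shares 321 exon bases with AC091588.3 on the opposite strand, with summed counts of 68 and 103 (log2 fold change 0.59). SNAI1, a repressor of epithelial junction genes, was low in both groups (summed counts of 72 and 33, adjusted p = 0.0399). It was chosen after its values were seen, and it was called in 1 of 6 omissions of a library (wild-type 2) and not under DESeq2 (adjusted p = 0.0759). SNAI2, ZEB1, ZEB2 and TWIST1, other such repressors, were too low to test.

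The adherens junction, the cadherin-based contact below the tight junction, had 0 genes higher and 4 lower of 9 tested (median -0.14), beside 12.4% lower among all tested genes. CDH1, which encodes E-cadherin, had 35.6, 39.1 and 39.5 CPM in wild type and 29.7, 30.4 and 28.8 CPM under the knockout label (log2 fold change -0.36, SE 0.08, edgeR adjusted p = 0.00127). CTNNB1, the gene of beta-catenin, fell from 659 ± 2.19 to 551 ± 16.96 CPM, and the cell-adhesion gene NECTIN4 from 7.70 ± 0.789 to 4.32 ± 0.474 CPM. NECTIN2 fell by 0.22 (adjusted p = 0.0183). NECTIN2 was not called when wild-type 3 (-0.15, adjusted p = 0.137), knockout-labelled 1 (adjusted p = 0.0592) or knockout-labelled 2 (adjusted p = 0.0661) was left out.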

How the data were processed

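The authors deposited raw counts per gene, which are whole numbers. The submitters' processing notes name HISAT2 2.0.5 and featureCounts 1.5.0-p3; the sources used here give no annotation and no strand setting. These notes list mm10, but all 58735 named genes carry human identifiers found in GENCODE 29, and 58724 have its start and end. The 232 rows without a gene name (0.13 to 0.25% of counts) were left out.

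The members and lists were chosen with earlier results of these data known. From each list of other genes the text names up to 4 called genes with the smallest p and the most abundant one, and any claudin with at least 10 counts in a library. edgeR 4.0.16 in R 4.3.3 fitted all libraries (TMM, filterByExpr with a minimum count of 10, robust quasi-likelihood test, two-sided), with Benjamini-Hochberg adjustment over all 15351 genes tested and a threshold of 0.05. Levels are CPM on TMM-scaled library sizes, and per kb use the deposited gene length. Intervals come from the fit. Python 3.11.15 was used for annotation and plots.

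The testing script was first tested on simulated data. Alternatives were other scalings and filters, DESeq2 1.42.0, limma 3.58.1 voom, no robust estimation, a test against at least 1.5-fold change, a block for replicate number, each library left out, and removal of the length trend.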

Additional observations from a re-analysis of the deposited data

How the results depend on the processing

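CLDN1, CLDN3, CLDN7, CLDN15 and CLDN23 kept their calls in every alternative except the test against a minimum change of 1.5-fold, and CLDN2 in every alternative except that one and the omission of wild-type library 1. That test left 377 genes higher and 418 lower against 1839 and 1896, and 0 of the members and 0 of the other tight junction genes in either direction. Leaving out 1 library gave 1 to 2 members higher, 4 to 5 members lower and 2 to 5 other tight junction genes lower, and the last count was 5 with the length trend removed. The estimate for CLDN12, near 0, changed sign with DESeq2 size factors in edgeR (-0.0017), without a filter on low counts (-0.012), under DESeq2 (-0.00062) and limma voom (-0.013), with the replicate block (-0.0049) and with the length trend removed (-0.014), and ranged from -0.094 to 0.11 over single omissions. CLDN4 ranged from -0.10 to 0.0085 over the same omissions. Deviations of same-numbered libraries from the group means correlated at 0.0277, -0.0977 and -0.123. For differently numbered libraries the values ran from -0.0495 to 0.146. Deviations within a group cancel, so these values depend on one another and cannot tell whether libraries were paired. With the replicate block 1478 genes were higher and 1475 lower, the members called were the same 6, and PRSS8, NECTIN2 and SNAI1 were not called, while FXYD3 was (0.54, adjusted p = 0.0472). CLDN2, CLDN15 and CLDN23 rest on 102 to 344 counts a library, which limits their precision. The causes of these changes were not tested.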

Other observations

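The nearest tested gene on each side of the 6 called members, without genes that overlap the member, gave 12 neighbours. Of these, 6 had the sign of their member and 6 the opposite sign. Overlapping tested genes left out were MORC4 at CLDN2 (log2 fold change -0.17, edgeR adjusted p = 0.0952) and ELP5 at CLDN7 (-0.16, adjusted p = 0.154). Both had the sign of their member. Of the 12 neighbours 3 were called, where 24.3% of all tested genes were called. All 3 went opposite to their member: FIS1, PRAG1 and RBM41, which lies 133559 bases from CLDN2 (log2 fold change 0.41, edgeR adjusted p = 0.00639). FIS1, a mitochondrial fission gene 638 bases from CLDN15, fell from 71.6 ± 8.92 to 59.8 ± 5.17 CPM (edgeR adjusted p = 0.0278), while CLDN15 rose. METTL27, 1897 bases from CLDN4, rose from 10.996 ± 0.498 to 15.4 ± 2.71 CPM (adjusted p = 0.00505), and CLDN4 was not called. PRAG1, the nearest tested gene on one side of CLDN23 at 315440 bases, rose from 86.1 ± 3.58 to 113 ± 0.836 CPM (adjusted p = 1.4e-05), while CLDN23 fell. MARVELD2, which encodes tricellulin, a relative of occludin at tricellular contacts, is the nearest tested gene before OCLN, and had 43.4 ± 3.73 and 44.1 ± 2.08 CPM (adjusted p = 0.889). Neither OCLN nor MARVELD2 was called. These neighbours were named after their values were seen.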
